A study of Mus musculus with 13 samples.

Results

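Glycogen is handled in the liver by a small set of enzymes and by subunits that bring protein phosphatase 1 to the glycogen particle. Of these, 8 genes of 54532 in the deposited table were examined: the targeting subunit genes Ppp1r3b, Ppp1r3c, Ppp1r3d, Ppp1r3e and Ppp1r3g, and the genes of glycogen synthase (Gys2), glycogen phosphorylase (Pygl) and the branching enzyme (Gbe1). They were taken by gene name, and the family was chosen by the counts of Ppp1r3g, which had a large difference between the dmPGE2 effects in injured and uninjured livers. Values of Ppp1r3g, and that difference for every gene, are therefore given without a test. All 8 genes passed the filter on low counts, but Ppp1r3d passed only through the injured livers, where it is high: no uninjured library reached the minimum of the filter. It therefore had to differ between injured and uninjured livers, and those differences are given as values without a test.

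The data are RNA-seq read counts and FPKM from whole livers of wild-type C57 BL6 mice aged 8 weeks. D-galactosamine blocks transcription in hepatocytes by trapping uridine nucleotides, and together with lipopolysaccharide it gives acute liver injury (GalN/LPS). The stable prostaglandin E2 analogue dmPGE2 was given before that injury or without it. The pretreated group (n = 4) received dmPGE2 at 300 µg/kg and, 1 h later, 500 mg/kg of D-galactosamine plus 5 µg/kg of lipopolysaccharide. The GalN/LPS group (n = 3) received D-galactosamine and lipopolysaccharide at the same doses and no dmPGE2. The dmPGE2 group (n = 3) received dmPGE2 at 300 µg/kg alone, with no interval to collection recorded for it, and the saline group (n = 3) received saline. Injured livers were taken 6 h after GalN/LPS, and the titles give 6 h for the other groups too. The labels do not say that each library is its own animal, so p-values measure the spread between these samples. The injections described in the protocol were intraperitoneal, and feeding before collection is not recorded in the labels.

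Glycogen synthase adds glucose to the growing chains and is switched on when its phosphates are removed. Phosphorylase releases glucose from them and is switched on by phosphorylation, so protein phosphatase 1 at the particle favours synthesis on both sides. The phosphatase has no glycogen-binding site of its own, and each targeting subunit binds both it and glycogen. In liver the subunit encoded by Ppp1r3b (GL) is the best known, and it is held back by active phosphorylase. The subunit encoded by Ppp1r3c (PTG) is known as a gene induced through cAMP and by fasting, and that encoded by Ppp1r3g was described in mice as a subunit whose level changes with the feeding cycle.

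The 8 genes lie on 8 chromosomes of GRCm38 in the deposited annotation. Ppp1r3g (ENSMUSG00000050423) spans chr13:35958839-35970388 on the plus strand, Ppp1r3c (ENSMUSG00000067279) chr19:36731737-36736653 on the minus strand and Ppp1r3d (ENSMUSG00000049999) chr2:178411206-178414472 on the minus strand. Ppp1r3b (ENSMUSG00000046794) lies at chr8:35375739-35388139 on the plus strand and Ppp1r3e (ENSMUSG00000072494) at chr14:54872669-54877550 on the minus strand. The enzyme genes are Gys2 (ENSMUSG00000030244, chr6:142422613-142473109, minus), Pygl (ENSMUSG00000021069, chr12:70190811-70231488, minus) and Gbe1 (ENSMUSG00000022707, chr16:70313949-70569716, plus). Antisense genes overlapped 3 of them: Gm45469 held 102 counts over all libraries beside 20882 of Ppp1r3b, Gm30127 held 3 beside 491 of Ppp1r3g, and F730035M05Rik held 41 beside 113705 of Pygl. Whether reads were counted by strand is not stated in the labels or headers.

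Promoter windows from 250 bases before to 50 after the start of the gene were in the RefSeq table (GRCm38.p6) for 5 of the 8 genes. Those of Ppp1r3g, Ppp1r3c and Ppp1r3d, the targeting subunit genes among the 5, are shown. Ppp1r3g (chr13:35967656-35967955, plus strand, 63.0% G or C), Ppp1r3c (chr19:36736555-36736854, minus strand, 65.3%) and Ppp1r3d (chr2:178414414-178414713, minus strand, 77.0%) are given 5′ to 3′ on the strand of the gene, with motif matches in capitals.
Ppp1r3g: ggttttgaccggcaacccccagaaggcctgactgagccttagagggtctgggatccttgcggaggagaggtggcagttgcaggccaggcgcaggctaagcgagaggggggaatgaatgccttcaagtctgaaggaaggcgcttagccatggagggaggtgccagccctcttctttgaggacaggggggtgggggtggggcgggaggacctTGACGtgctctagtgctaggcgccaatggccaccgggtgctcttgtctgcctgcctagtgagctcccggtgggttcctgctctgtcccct
Ppp1r3c: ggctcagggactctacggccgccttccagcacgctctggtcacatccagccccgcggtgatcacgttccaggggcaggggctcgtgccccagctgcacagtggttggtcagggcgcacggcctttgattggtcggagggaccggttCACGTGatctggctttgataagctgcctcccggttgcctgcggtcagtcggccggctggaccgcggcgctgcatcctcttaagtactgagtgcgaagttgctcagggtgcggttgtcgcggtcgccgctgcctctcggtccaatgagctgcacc
Ppp1r3d: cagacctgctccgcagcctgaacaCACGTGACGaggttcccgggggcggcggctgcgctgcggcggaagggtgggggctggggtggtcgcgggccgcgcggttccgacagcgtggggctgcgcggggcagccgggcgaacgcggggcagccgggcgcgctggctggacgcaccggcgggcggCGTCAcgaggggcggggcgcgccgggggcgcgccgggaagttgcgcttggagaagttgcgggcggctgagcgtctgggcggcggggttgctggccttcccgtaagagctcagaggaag
Searched on both strands were the cAMP response element TGACGTCA, its half-site TGACG and the E-box CACGTG. The windows of Ppp1r3g and Pygl (chr12:70227634-70227933), and so their RefSeq starts, lie wholly inside the spans that the deposited annotation gives these genes. The full element was in none of the 5 windows and in 1.79% of the 32817 windows of the table. A half-site was in the windows of Ppp1r3g (1 match), Pygl (1 match) and Ppp1r3d (2 matches, of which 1 overlaps the E-box there), against 20.8% of all windows. An E-box stood in the windows of Ppp1r3c and Ppp1r3d, against 7.15% of all windows, and Gbe1 had no match to any of them. These are matches of letters and not shown binding sites.

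Levels are given as deposited FPKM, which divide the count by gene length, and changes as log2 fold changes ± SE from edgeR's quasi-likelihood test on the counts with TMM scaling. A gene is called where the p adjusted by the Benjamini-Hochberg method over all 14280 tested genes is under 0.05. Total counts per library lay between 14829838 and 20777809. Markers of the tissue were present: Alb, the albumin gene, ranged from 37510 to 66840 FPKM in pretreated, 28410 to 38330 in GalN/LPS, 19180 to 21490 in dmPGE2 and 26110 to 30860 in saline libraries. A list of 9 muscle and fat markers summed to at most 1.78 CPM in any library. CPM here is the count scaled to the library total times the TMM factor of that library, so summed CPM levels carry the TMM scaling. Scaling bears on every comparison with the pretreated group, since TMM factors were 0.683 to 0.830 there, 0.904 to 1.14 in GalN/LPS, 1.16 to 1.28 in dmPGE2 and 1.17 to 1.18 in saline libraries.

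After GalN/LPS, Ppp1r3b, Ppp1r3e and Gys2 fell and Pygl was slightly higher, so 4 of 6 genes were called against saline, 1 higher and 3 lower. Ppp1r3d, barely detected in saline livers, had far more reads, and with it the count was 5 of 7. In all, 52.9% of the tested genes were called in this comparison (27.4% higher, 25.6% lower), so a count of 4 in 6 is not far from the rest of the transcriptome. The median was -0.45 over the 6 genes, 0.04 with Ppp1r3d and 0.02 over all genes. In bulk tissue, fewer cells of a type and less RNA per cell cannot be told apart. Pretreated livers differed from GalN/LPS livers in 5 of the 7 genes, with Gys2, Pygl and Gbe1 higher and Ppp1r3b and Ppp1r3c lower. There 54.5% of all genes were called (24.4% higher, 30.1% lower), and the medians were 0.22 over the 7 and -0.10 over all genes. Both comparisons use the same GalN/LPS libraries.

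**Figure D1:**
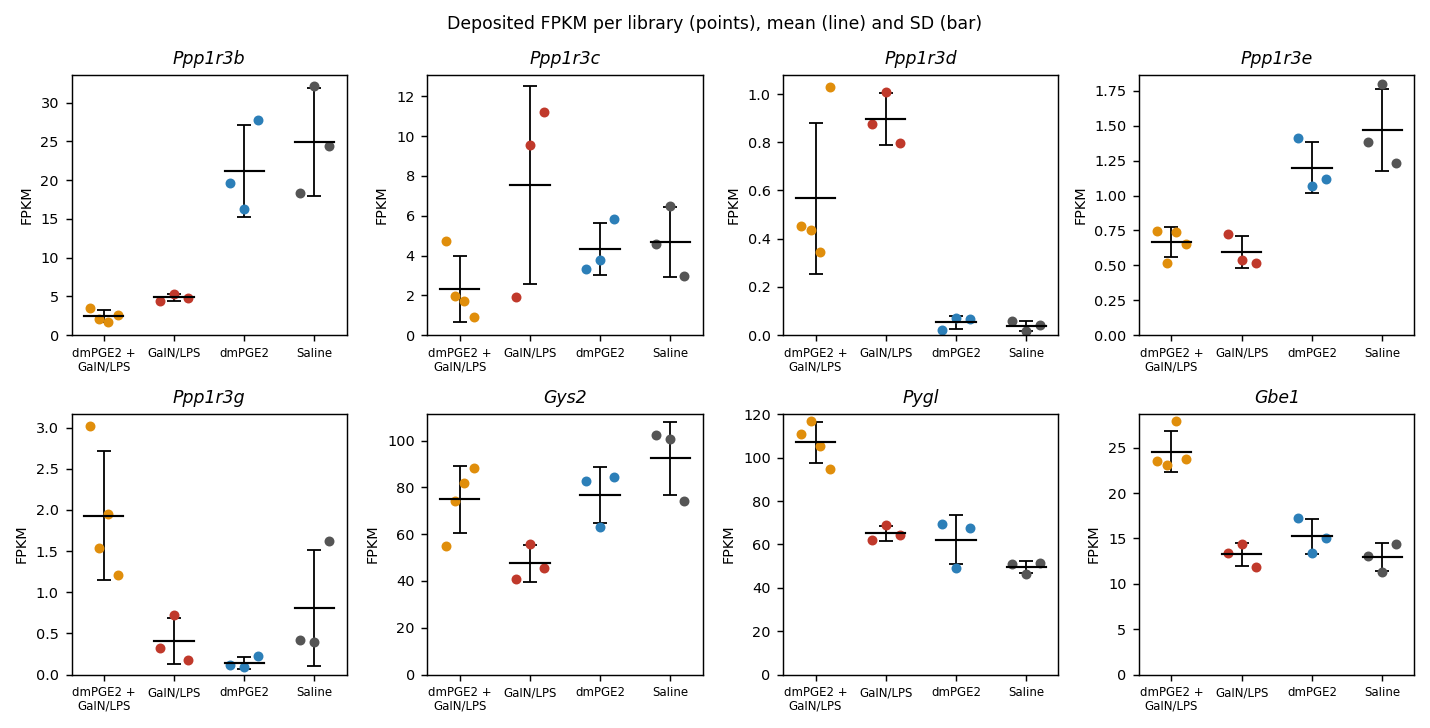
Deposited FPKM of the 8 genes in each library, by group from left to right: dmPGE2 + GalN/LPS, GalN/LPS, dmPGE2 and saline. Points are libraries, lines are means and bars are SD (n = 4, 3, 3 and 3). Ppp1r3b is low in both injured groups, Ppp1r3d is near 0 in both uninjured groups, and Pygl and Gbe1 are highest in the pretreated livers.

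Ppp1r3b was the most abundant targeting subunit mRNA of uninjured liver. GalN/LPS livers had 4.47, 5.36 and 4.79 FPKM, against 18.3, 32.1 and 24.4 FPKM in saline livers. All injured livers lay far below all saline livers, with no overlap; 59.7% of all tested genes had none in this comparison. The fall was 5.07-fold, at -2.34 ± 0.26 on the log2 scale (adjusted p = 1.79e-06). Pretreated livers went lower still, with 3.52, 2.04, 1.65 and 2.67 FPKM. Each was below every GalN/LPS liver, as was one group against the other in 50.4% of all genes, and the difference was -0.93 ± 0.24 (adjusted p = 0.00456). This subunit gene therefore fell in injured livers with and without dmPGE2, and it kept both calls under the other processing settings tried.

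Ppp1r3c, which encodes the cAMP-responsive subunit PTG, split the GalN/LPS group. Its libraries had 1.90, 9.53 and 11.2 FPKM, against 4.59, 6.49 and 2.97 FPKM in saline livers. The first GalN/LPS liver was below the saline livers and the other 2 were above them, and the gene was not called (0.71 ± 0.53, adjusted p = 0.271). Without that liver the change was 1.18 (adjusted p = 0.0329). The same library stood apart in Irs2, the insulin receptor substrate gene, chosen after its values were seen, with 1.32 FPKM beside 5.06 and 5.06 FPKM in the other GalN/LPS livers. In pretreated livers Ppp1r3c had 4.71, 1.96, 1.73 and 0.932 FPKM. They overlapped the GalN/LPS livers only through the low GalN/LPS liver and were lower by -1.65 ± 0.51 (adjusted p = 0.0132). That call was lost without GalN/LPS 2 (-1.41, adjusted p = 0.051) or GalN/LPS 3 (-1.28, adjusted p = 0.0789).

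Ppp1r3d encodes a targeting subunit found in many tissues (R6). It had 52, 54 and 50 reads in GalN/LPS livers, against 4, 1 and 3 reads in saline livers. Per length this was 0.877, 1.01 and 0.798 FPKM in GalN/LPS livers, against 0.0572, 0.0156 and 0.0444 FPKM in saline livers, with no overlap. The fitted difference was 4.44 ± 0.54 on the log2 scale, from a low count in saline, and 0.87 on the log2(FPKM + 1) scale, which understates changes of low genes. It is a description, for the reason given above. Pretreated livers had 0.454, 0.438, 0.347 and 1.03 FPKM, with 19, 22, 14 and 41 reads. The fourth lay above every GalN/LPS liver and the other 3 below, and the gene was not called (-0.61 ± 0.38, adjusted p = 0.184). Without the fourth pretreated liver it was -1.05 (adjusted p = 0.0233).

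Markers of other cell types rose beside Ppp1r3d, in a comparison where 27.4% of all genes were called higher. For neutrophils, 10 of 10 genes were called higher in GalN/LPS than in saline livers (median 6.64), with a summed level of 738.8 to 988.7 CPM in GalN/LPS and 7.27 to 19.7 CPM in saline livers. All 10 endothelial markers (629.4 to 810.7 CPM, against 87.8 to 103.7 CPM), 8 of 10 macrophage markers (729.4 to 1223 CPM, against 163.2 to 222.9 CPM) and 9 of 10 stellate cell markers (437.0 to 840.7 CPM, against 98.1 to 157.9 CPM) were higher as well. Of the lymphocyte markers, 7 of 10 were higher (33.7 to 46.0 CPM in GalN/LPS, against 5.48 to 6.65 CPM in saline), and so were 6 of 6 tested bile duct markers (95.5 to 183.4 CPM, against 45.0 to 68.9 CPM). In these cell-type lists no marker was without reads in the saline group as a whole. Some were barely detected there, among them Trem1 (0, 0.017 and 0 FPKM) and Il1r2 (0, 0.0266 and 0.0761 FPKM) of the neutrophil list. Such genes, like Ppp1r3d, could pass the filter only through the injured livers. The counts of markers called higher include them, and their calls are not tests. The part of these cells in the level of Ppp1r3d was not tested. In pretreated livers the summed neutrophil markers were at 292.4 to 444.3 CPM and all 10 were called lower than in GalN/LPS livers. Of all genes, 30.1% were called lower there.

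Ppp1r3e encodes a further glycogen-targeting subunit. GalN/LPS livers had 0.725, 0.535 and 0.520 FPKM, against 1.38, 1.80 and 1.23 FPKM in saline livers. Every GalN/LPS liver was below every saline liver, and the fall was -1.30 ± 0.26 (adjusted p = 0.000545). Pretreated livers had 0.748, 0.519, 0.742 and 0.652 FPKM, a range that spans the GalN/LPS values (0.22 ± 0.26, adjusted p = 0.5).

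Ppp1r3g had the fewest reads in dmPGE2 livers and the most in pretreated livers. Pretreated livers had 3.02, 1.54, 1.95 and 1.21 FPKM, from 104, 64, 65 and 40 reads. GalN/LPS livers had 0.327, 0.724 and 0.174 FPKM from 16, 32 and 9 reads, all below all pretreated livers. The difference between these groups was 2.30 ± 0.56 on the log2 scale, a description of the values that chose the gene. In uninjured livers the order was the opposite, with 0.112, 0.0866 and 0.225 FPKM in dmPGE2 livers, against 0.416, 0.396 and 1.62 FPKM in saline livers. These groups did not overlap either (-2.48 ± 0.65), but the dmPGE2 livers held only 8, 4 and 14 reads. GalN/LPS livers overlapped saline livers (-0.99 ± 0.59), and pretreated livers overlapped saline livers through the third one (1.31 ± 0.51).

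The third saline library carried much of the saline level of Ppp1r3g, with 90 reads beside 24 and 21. Without it the difference was 0.00 for GalN/LPS against saline, -1.47 for dmPGE2 against saline and 2.32 for pretreated against saline. The same library was the highest saline one in several genes that respond to feeding, chosen after their values were seen. Srebf1, the sterol regulatory factor of fat synthesis, had 65.7 FPKM there beside 21.6 and 31.7 in the other saline livers. Tat, which encodes tyrosine aminotransferase, had 867 FPKM beside 272 and 414, and Igfbp1 had 54.1 FPKM beside 17.8 and 3.13. Other genes that respond to feeding were lowest in that library. Pklr had 42.7 FPKM there beside 69.4 and 63.9, and Trib3 had 1.05 FPKM beside 2.46 and 2.39. Whether feeding state differed was not tested.

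The difference of the 2 dmPGE2 effects, injured less uninjured, was 4.78 ± 0.85 for Ppp1r3g. It was 3.78 without the third saline liver, and between 3.78 and 5.51 with any single library left out. With limma it was 3.77 on the log2(FPKM + 0.1) scale and 1.64 on the log2(FPKM + 1) scale, where the effect was 1.04 in injured and -0.60 in uninjured livers. For the other genes it was 0.97 ± 0.27 for Gys2, 0.71 ± 0.19 for Gbe1, 0.44 ± 0.21 for Pygl, 0.50 ± 0.36 for Ppp1r3e, -0.70 ± 0.34 for Ppp1r3b, -0.97 ± 0.83 for Ppp1r3d and -1.54 ± 0.74 for Ppp1r3c. Over all genes its median was -0.11, and 35.0% of them were called for it. With library totals in place of TMM it was 4.23 for Ppp1r3g, and the median of all genes was -0.69.

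The make-up of the targeting subunit mRNAs differed between injured and uninjured livers. The 5 levels were summed per library in FPKM and each gene was given as a share of that sum, a measure free of library scaling. Ppp1r3b held 31.6% ± 6.73 of the sum in pretreated, 37.5% ± 14.3 in GalN/LPS, 78.6% ± 1.91 in dmPGE2 and 77.8% ± 3.39 in saline livers (SD, n = 4, 3, 3 and 3). Its highest share in an injured liver was 53.8% and its lowest in an uninjured liver was 74.0%. Ppp1r3c held 27.3% ± 9.79 in pretreated, 47.5% ± 21.7 in GalN/LPS, 16.0% ± 2.14 in dmPGE2 and 14.7% ± 4.46 in saline livers. Ppp1r3g reached 24.3% ± 4.80 in pretreated livers, and averaged 3.05% ± 1.79 in GalN/LPS, 0.502% ± 0.124 in dmPGE2 and 2.66% ± 2.34 in saline livers. Its lowest pretreated share was 18.7% and its highest share elsewhere was 5.34%, in the third saline liver. Ppp1r3d held 7.90% ± 5.42 in pretreated and 7.0% ± 3.15 in GalN/LPS livers, but 0.206% ± 0.121 in dmPGE2 and 0.139% ± 0.0966 in saline livers. The share of Ppp1r3e averaged between 4.67% and 8.89% in all groups.

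**Figure D2:**
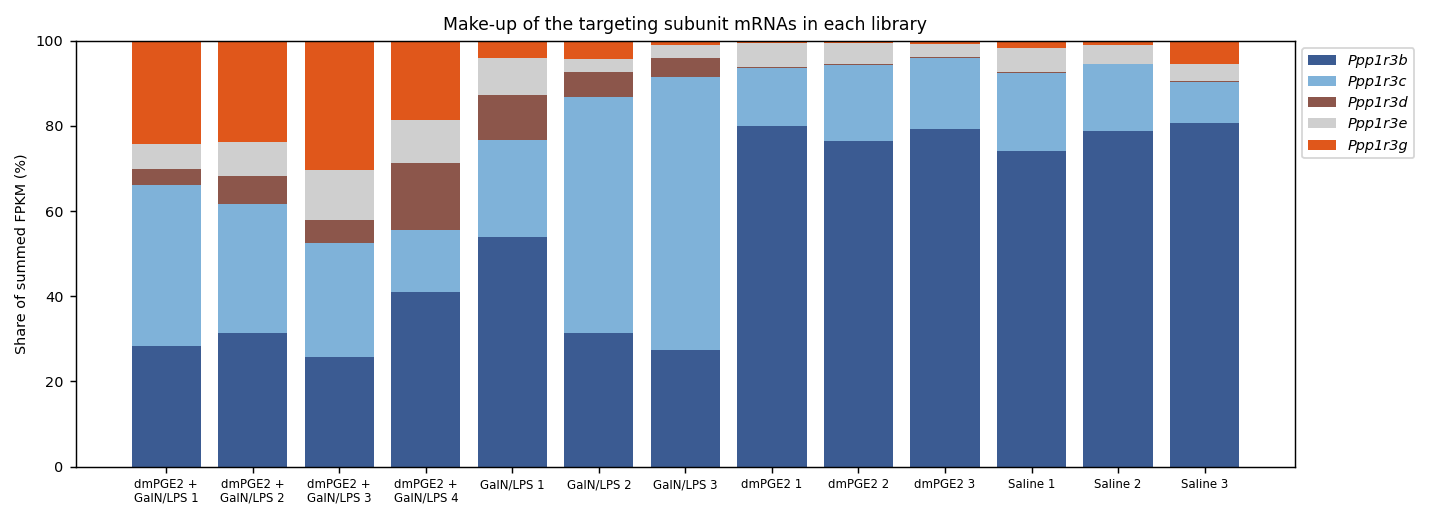
Share (%) of each targeting subunit gene in the summed FPKM of the 5 genes, 1 bar per library. Ppp1r3b makes up at least 74.0% of every uninjured bar and at most 53.8% of every injured bar, and Ppp1r3g takes 18.7% or more in the 4 pretreated libraries.

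Summed over the 5 genes, targeting subunit mRNA was 7.97 ± 2.99 FPKM in pretreated, 14.3 ± 5.21 in GalN/LPS, 26.9 ± 7.18 in dmPGE2 and 32.0 ± 8.14 FPKM in saline livers (SD). Pretreated livers ranged from 6.42 to 12.4 FPKM and GalN/LPS livers from 8.30 to 17.5 FPKM, so these groups overlapped. Saline livers ranged from 24.8 to 40.8 FPKM, above all injured livers.

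Gys2, the liver form of glycogen synthase, fell after GalN/LPS. Injured livers had 40.9, 56.0 and 45.6 FPKM, against 102.3, 100.5 and 74.3 FPKM in saline livers. All 3 lay below all saline livers, and the fall was -0.94 ± 0.20 (adjusted p = 0.000886). Pretreated livers had 55.0, 74.2, 81.8 and 88.4 FPKM. The lowest of them was just below the highest GalN/LPS liver and the other 3 were above, and the gene was higher by 0.71 ± 0.19 (adjusted p = 0.00536). Against saline, pretreated livers overlapped and the gene was not called (-0.23, adjusted p = 0.279).

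Pygl, the liver form of glycogen phosphorylase, was highest in pretreated livers. GalN/LPS livers had 62.2, 69.0 and 64.4 FPKM, against 51.1, 46.5 and 51.3 FPKM in saline livers. The groups did not overlap, yet the rise of 0.41 ± 0.16 passed the test narrowly (adjusted p = 0.0369). It was lost in 10 of 22 other settings, among them the fits without any one of the saline livers, without GalN/LPS 2 or GalN/LPS 3, and without the third dmPGE2 liver. Pretreated livers had 111.1, 116.7, 105.4 and 94.8 FPKM, all above all GalN/LPS livers (0.77 ± 0.15, adjusted p = 0.000625). They also stood above all saline livers, by 1.18 ± 0.15 (adjusted p = 5.85e-06).

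Gbe1, whose enzyme adds the branches, had 13.4, 14.4 and 11.9 FPKM in GalN/LPS livers, against 13.1, 11.3 and 14.4 FPKM in saline livers. The groups overlapped fully and the gene was not called (0.04 ± 0.14, adjusted p = 0.816; 95% interval -0.26 to 0.35). Pretreated livers had 23.5, 23.1, 27.9 and 23.7 FPKM. Each was above every GalN/LPS and saline liver, by 0.95 ± 0.14 against GalN/LPS (adjusted p = 7.49e-05) and 0.99 ± 0.14 against saline (adjusted p = 1.22e-05).

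Markers of hepatocytes were higher in pretreated livers as well, beside the rise of the 3 enzyme genes. Of all genes, 24.4% were called higher than in GalN/LPS livers. Of 9 measured hepatocyte markers, 9 were called higher in pretreated than in GalN/LPS livers, with a median of 0.81, and their summed level was 148200 to 225500 CPM, against 93510 to 134400 CPM. Alb differed by 0.72 ± 0.25 (adjusted p = 0.0246) and Hnf4a, a transcription factor of hepatocyte identity, by 0.63 ± 0.18 (adjusted p = 0.00874). None of the 9 was without reads in any group. Both these calls and the summed levels use the TMM scaling. With library totals the median of all genes in this comparison moved from -0.10 to -0.61. Against saline none of the 9 was called in GalN/LPS livers by edgeR (0 at an unadjusted p under 0.05, and 1 by DESeq2), where their sum in saline livers was 90030 to 108100 CPM. The part of hepatocyte content in the enzyme levels was not tested.

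Pretreated values also turned on the scaling. With library totals in place of TMM, the median of all genes in pretreated against GalN/LPS was -0.61, and the share of higher genes among those called was 8.3%, with TMM 44.7%. Gys2 was then at 0.22 (adjusted p = 0.33) and Pygl at 0.28 (adjusted p = 0.166), no longer called, while Gbe1 was at 0.44 (adjusted p = 0.0134). Ppp1r3d was at -1.12 (adjusted p = 0.0196) and so called lower, and Ppp1r3c was at -2.12. Relative to the median of all genes, Gys2, Pygl and Gbe1 stood at 0.81, 0.87 and 1.05 with TMM and at 0.82, 0.88 and 1.05 with totals.

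Ratios of 2 genes within a library do not depend on its scaling. The ratio of Gys2 to Pygl in FPKM was 0.495, 0.635, 0.776 and 0.932 in pretreated livers, 0.657, 0.811 and 0.709 in GalN/LPS livers, 1.19, 1.29 and 1.25 in dmPGE2 livers and 2.0, 2.16 and 1.45 in saline livers. By FPKM, Gys2 was thus below Pygl in every injured library and above it in every uninjured one. The side of 1 depends on the gene lengths used, 2657 bases for Gys2 and 6895 for Pygl. By reads, Pygl was above Gys2 in every library, with 7539 beside 5818 in saline 1. GalN/LPS livers were lower than saline livers by 2.55-fold with no overlap (log2 difference -1.35, two-sided exact permutation p = 0.1, the smallest that 3 against 3 allows, adjusted 0.167 over 25 ratio tests). Pretreated livers had a mean ratio of 0.71 ± 0.188 and GalN/LPS livers of 0.726 ± 0.0783 (SD), and they overlapped (exact permutation p = 0.8). The dmPGE2 livers lay below all saline livers by 1.48-fold (log2 difference -0.57, exact permutation p = 0.1, adjusted 0.167), with no call for either gene alone.

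The ratio of Ppp1r3b to Gys2 was lowest in pretreated livers and lower in both injured groups than in both uninjured ones. It was 0.0355 ± 0.0195 in pretreated, 0.103 ± 0.00685 in GalN/LPS, 0.274 ± 0.0481 in dmPGE2 and 0.276 ± 0.0836 in saline livers (SD). Pretreated livers were below all GalN/LPS livers by 3.21-fold (log2 difference -1.68, two-sided exact permutation p = 0.0571, the smallest that 4 against 3 allows, adjusted 0.159). GalN/LPS livers were below all saline livers by 2.58-fold (exact permutation p = 0.1, adjusted 0.167). Between dmPGE2 and saline livers the ratios overlapped (log2 difference 0.03, exact permutation p = 0.9). None of the 25 ratio tests passed 0.05, which the group sizes do not allow.

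Gbe1 and Pygl kept a nearer ratio to each other, with 0.231 ± 0.0315 in pretreated, 0.203 ± 0.0152 in GalN/LPS, 0.248 ± 0.0245 in dmPGE2 and 0.260 ± 0.0195 in saline livers (SD). GalN/LPS livers lay 1.28-fold below saline livers with no overlap (exact permutation p = 0.1, adjusted 0.167), and the other 4 pairs tested overlapped. GalN/LPS livers (0.186 to 0.215) also lay below dmPGE2 livers (0.224 to 0.273), a pair that was not tested. Ppp1r3c against Ppp1r3b was at 0.923 ± 0.416 in pretreated, 1.51 ± 0.981 in GalN/LPS, 0.205 ± 0.0315 in dmPGE2 and 0.191 ± 0.0649 in saline livers. Described without a test, Ppp1r3g against Ppp1r3b was at 0.812 ± 0.299 in pretreated and 0.0815 ± 0.0498 in GalN/LPS livers, and at 0.00638 ± 0.00150 in dmPGE2 and 0.0337 ± 0.0286 in saline livers.

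**Figure D3:**
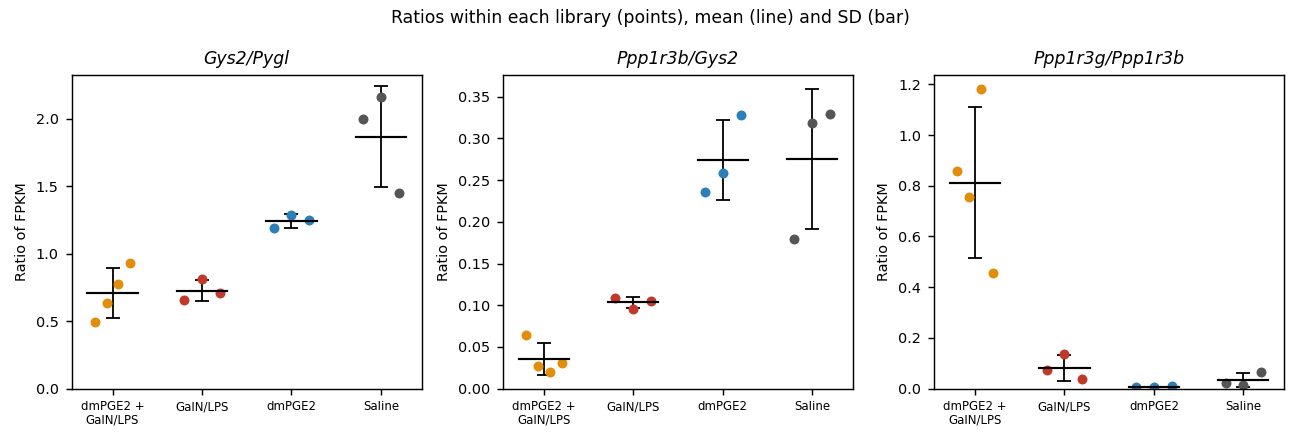
Ratios of FPKM within each library, by group from left to right: dmPGE2 + GalN/LPS, GalN/LPS, dmPGE2 and saline. Points are libraries, lines are means and bars are SD. The ratio of Gys2 to Pygl is under 1 in all injured livers, and the ratio of Ppp1r3g to Ppp1r3b is near 0 outside the pretreated livers.

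In livers given dmPGE2 without injury, none of the 7 tested genes was called against saline by edgeR, with 0 at an unadjusted p under 0.05, 0 by DESeq2 and 0 by limma on log2(FPKM + 1). Over all genes 0% were called (0 of 14280), with 1990 at an unadjusted p under 0.05, and DESeq2 called 137 higher and 150 lower and limma 12 higher and 4 lower. Pygl had 69.6, 49.1 and 67.5 FPKM in dmPGE2 livers, against 51.1, 46.5 and 51.3 FPKM in saline livers, which overlapped (0.33, 95% interval 0.00 to 0.66, adjusted p = 0.364). Gys2 had 82.8, 63.1 and 84.6 FPKM in dmPGE2 livers and differed by -0.26 (interval -0.68 to 0.16). Ppp1r3b had 19.6, 16.3 and 27.8 FPKM and differed by -0.23 (interval -0.76 to 0.29). In each of these 3 genes the dmPGE2 and saline livers overlapped. Gbe1 had 17.2, 13.4 and 15.1 FPKM in dmPGE2 livers, at 0.24 (interval -0.06 to 0.54). The intervals of Ppp1r3c (-1.23 to 1.01) and Ppp1r3d (-1.17 to 1.89) leave room for large changes either way, and that of Ppp1r3e ran from -0.79 to 0.23. In each of the 7 the groups overlapped, while 26.3% of all genes had no overlap.

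Among livers given dmPGE2, those with injury differed from those without it in 4 of 6 genes (5 of 7 with Ppp1r3d), where 66.7% of all genes were called (35.3% higher, 31.4% lower). Ppp1r3b fell by 3.04 ± 0.24 on the log2 scale (adjusted p = 4.97e-08) and Ppp1r3e by 0.80 ± 0.24 (adjusted p = 0.00879). Described without a test, Ppp1r3d was at 3.47 ± 0.52, and at 0.55 on the log2(FPKM + 1) scale. Pygl was higher by 0.85 ± 0.15 (adjusted p = 0.00011) and Gbe1 by 0.75 ± 0.13 (adjusted p = 0.000144). With library totals these last 2 were at 0.10 (adjusted p = 0.605) and 0.00 (adjusted p = 0.98), so their calls depend on the scaling. Each kept its call in 21 of 22 other settings, with library totals the exception. The call of Ppp1r3e was lost without the first dmPGE2 liver (-0.66, adjusted p = 0.0564). Gys2 had no difference past the test (0.03, adjusted p = 0.904), though with library totals it was lower (-0.73, adjusted p = 0.00194). No library values overlapped in those 5 genes, Ppp1r3d included, as in 64.9% of all genes.

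Against saline, pretreated livers differed in 4 of 6 genes too (5 of 7 with Ppp1r3d), where 61.8% of all genes had no overlap and 65.0% were called (34.8% higher, 30.2% lower). Ppp1r3b fell by 3.27 ± 0.25 (adjusted p = 3.02e-08) and Ppp1r3e by 1.08 ± 0.24 (adjusted p = 0.00105). Ppp1r3d, again without a test, was at 3.83 ± 0.54, and at 0.57 on the log2(FPKM + 1) scale. With library totals Gbe1 was at 0.31 and no longer called (adjusted p = 0.063), and Gys2 was at -0.92 and called lower (adjusted p = 0.000301). Ppp1r3c was not called here (-0.94, adjusted p = 0.121) or against dmPGE2 (-0.83, adjusted p = 0.168). It was called in 5 of 22 other settings here and in 4 of 22 against dmPGE2. Among them were library totals (-1.62, adjusted p = 0.0127, and -1.57, adjusted p = 0.0146) and only the groups compared (-1.10, adjusted p = 0.0423, and -0.98, adjusted p = 0.0455).

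Over the 13 libraries Pygl and Gbe1 moved together (Pearson r of log2 CPM 0.92), and Ppp1r3d ran opposite to Ppp1r3b (-0.86) and Ppp1r3e (-0.94). Ppp1r3b and Ppp1r3e ran together (0.85), and Gys2 had an r of 0.00 with Pygl. These values describe libraries of 4 groups that share scaling and treatment. Of 8565 genes compared, those most like Ppp1r3g were Fads1 (r = 0.943), a fatty acid desaturase gene, Kyat1 (0.942), Lamtor1 (0.941), Tsfm (0.939) and Serpina11 (0.929). Fads1 averaged 158.7 FPKM in pretreated, 78.3 in GalN/LPS, 61.8 in dmPGE2 and 100.8 in saline livers, the same order of groups as Ppp1r3g over a narrower range. Those most like Gys2 were Rprd2 (0.916), Cped1 (0.912), Cpt2 (0.908), which encodes a carnitine palmitoyltransferase of mitochondria, Lpcat3 (0.903) and Usp30 (0.896).

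Among 10 other genes of glycogen synthesis, GalN/LPS livers had 2 higher and 5 lower than saline livers, with a median of -0.34. Over all genes, 27.4% were called higher and 25.6% lower in that comparison. Stbd1, which encodes a protein that anchors glycogen to membranes, had 17, 15 and 15.2 FPKM in GalN/LPS livers, against 37.5, 33.9 and 38.7 FPKM in saline livers (-1.21 ± 0.11, adjusted p = 1.76e-07). The groups lay far apart, and pretreated livers, at 15.1, 16.2, 16.0 and 15.0 FPKM, matched the GalN/LPS range (0.04 ± 0.10, adjusted p = 0.728). Of the 2 phosphoglucomutase genes on the list, Pgm1 rose (2.59 ± 0.25, adjusted p = 3.71e-07) and Pgm2, at 63.8 ± 2.24 FPKM in saline livers where Pgm1 had 1.29 ± 0.251 FPKM (SD), fell (-0.79 ± 0.15, adjusted p = 0.000377). Gckr rose (0.69 ± 0.15, adjusted p = 0.00111). In pretreated against GalN/LPS livers 5 of the 10 were higher and 2 lower (median 0.41), among them Pgm2 (0.96 ± 0.14, adjusted p = 0.000109), Pgm1 (-1.36 ± 0.22, adjusted p = 0.000174) and Gckr again (0.69 ± 0.14, adjusted p = 0.00107). With library totals these counts were 1 higher and 3 lower, and without GalN/LPS 1 they were 2 and 2. Over all genes, 24.4% were called higher and 30.1% lower in this comparison with TMM.

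Of 15 genes of glycogen breakdown and glucose release, 4 were higher and 5 lower in GalN/LPS than in saline livers (median -0.01). That is 9 of 15 called, where 52.9% of all genes were, so the count is not far from the rest. G6pc, the glucose-6-phosphatase gene, had 10.3, 10.5 and 14.5 FPKM in GalN/LPS livers, against 85.6, 81.7 and 89.7 FPKM in saline livers. It was the gene of this list with the clearest separation (-2.85 ± 0.17, adjusted p = 1.53e-09). Phkg1, a catalytic subunit gene of phosphorylase kinase, is counted among the 9, but saline livers held almost no reads (0, 0 and 0.0149 FPKM). GalN/LPS livers had 0.110, 0.356 and 0.417 FPKM. Like Ppp1r3d, Phkg1 could pass the filter only through the injured livers, where it is high. Its call is therefore not a test, and no fold is given.

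Pretreated livers had 10 of these 15 genes higher and 3 lower than GalN/LPS livers (median 0.38). Over all genes, 24.4% were higher and 30.1% lower there. Slc37a4, the glucose-6-phosphate transporter gene, had 140.7, 140.3, 120.8 and 107.9 FPKM in pretreated livers, against 60.8, 60.5 and 71.8 FPKM in GalN/LPS livers, with no overlap (1.04 ± 0.14, adjusted p = 5.91e-05). Phkb, a regulatory subunit gene of phosphorylase kinase, was higher too (0.92 ± 0.14, adjusted p = 0.000124). With library totals 4 were higher and 3 lower.

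In 25 tested genes of control of these enzymes, 5 were higher and 8 lower after GalN/LPS (median -0.11). That is 13 of 25 called, near the 52.9% of all genes called in this comparison. Ppp1ca, a catalytic subunit gene of protein phosphatase 1, had 70.9, 81.7 and 73.9 FPKM in GalN/LPS livers, against 48.4, 44.1 and 45.8 FPKM in saline livers (0.73 ± 0.12, adjusted p = 0.000103). Pretreated livers had 118.4, 105.3, 121.6 and 103.0 FPKM of it, above both (0.62 ± 0.11 against GalN/LPS, adjusted p = 0.00043). The other catalytic subunit genes on the list did not all share this order. Ppp1cb was higher in GalN/LPS than in saline livers (0.60 ± 0.12, adjusted p = 0.000723) and in pretreated than in GalN/LPS livers (0.30 ± 0.12, adjusted p = 0.0367). Ppp1cc was lower in pretreated than in saline livers (-0.37 ± 0.15, adjusted p = 0.0412), and both genes were named after their values were seen. The AMP-activated protein kinase genes Prkaa2 (-1.54 ± 0.16, adjusted p = 1.01e-06) and Prkag2 (-1.64 ± 0.22, adjusted p = 1.56e-05) fell after GalN/LPS. Other subunit genes of this kinase on the list, named after their values were seen, were mixed. Prkag1 fell (-0.68 ± 0.16, adjusted p = 0.00183) and Prkab2 rose (1.23 ± 0.35, adjusted p = 0.00772). Prkaa1 (adjusted p = 0.661) and Prkab1 (adjusted p = 0.0807) were not called. The 2 further targeting subunit genes on the list, Ppp1r3a and Ppp1r3f, were below the filter, at means of at most 0.0155 and 0.0449 FPKM in any group. In pretreated against GalN/LPS livers 12 were higher and 7 lower (median 0.23), and with library totals 0 were higher and 11 lower. Of all genes, 24.4% were higher and 30.1% lower there with TMM. Slc2a2, the liver glucose transporter gene, was higher (0.87 ± 0.15, adjusted p = 0.000343) and Dyrk1a, a kinase gene, lower (-1.24 ± 0.16, adjusted p = 4.25e-05).

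Of 13 genes that follow feeding and fasting, some of which, such as G6pc and Irs2, are also on the lists above, 3 were higher and 8 lower after GalN/LPS (median -0.84). Over all genes, 27.4% were higher and 25.6% lower there. The 13 genes did not split by fed or fasted state. Foxo1 (-1.99 ± 0.17, adjusted p = 1.14e-07) and Ppargc1a (-1.71 ± 0.25, adjusted p = 2.6e-05), both regulators of the fasted liver, fell. Pdk4, a kinase gene of fasting, rose (3.33 ± 0.37, adjusted p = 1.61e-06). In pretreated against GalN/LPS livers 7 were higher and 3 lower (median 0.61), where 24.4% of all genes were higher and 30.1% lower. Pck1, the gluconeogenic carboxykinase gene, had 862.0, 842.2, 833.3 and 731.3 FPKM in pretreated livers, against 332.5, 405.3 and 357.2 FPKM in GalN/LPS livers (1.22 ± 0.17, adjusted p = 6.62e-05). Tat was higher (1.79 ± 0.32, adjusted p = 0.000354) and Pdk4 lower (-1.69 ± 0.31, adjusted p = 0.000439). With library totals 3 were higher and 4 lower.

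**Figure D4:**
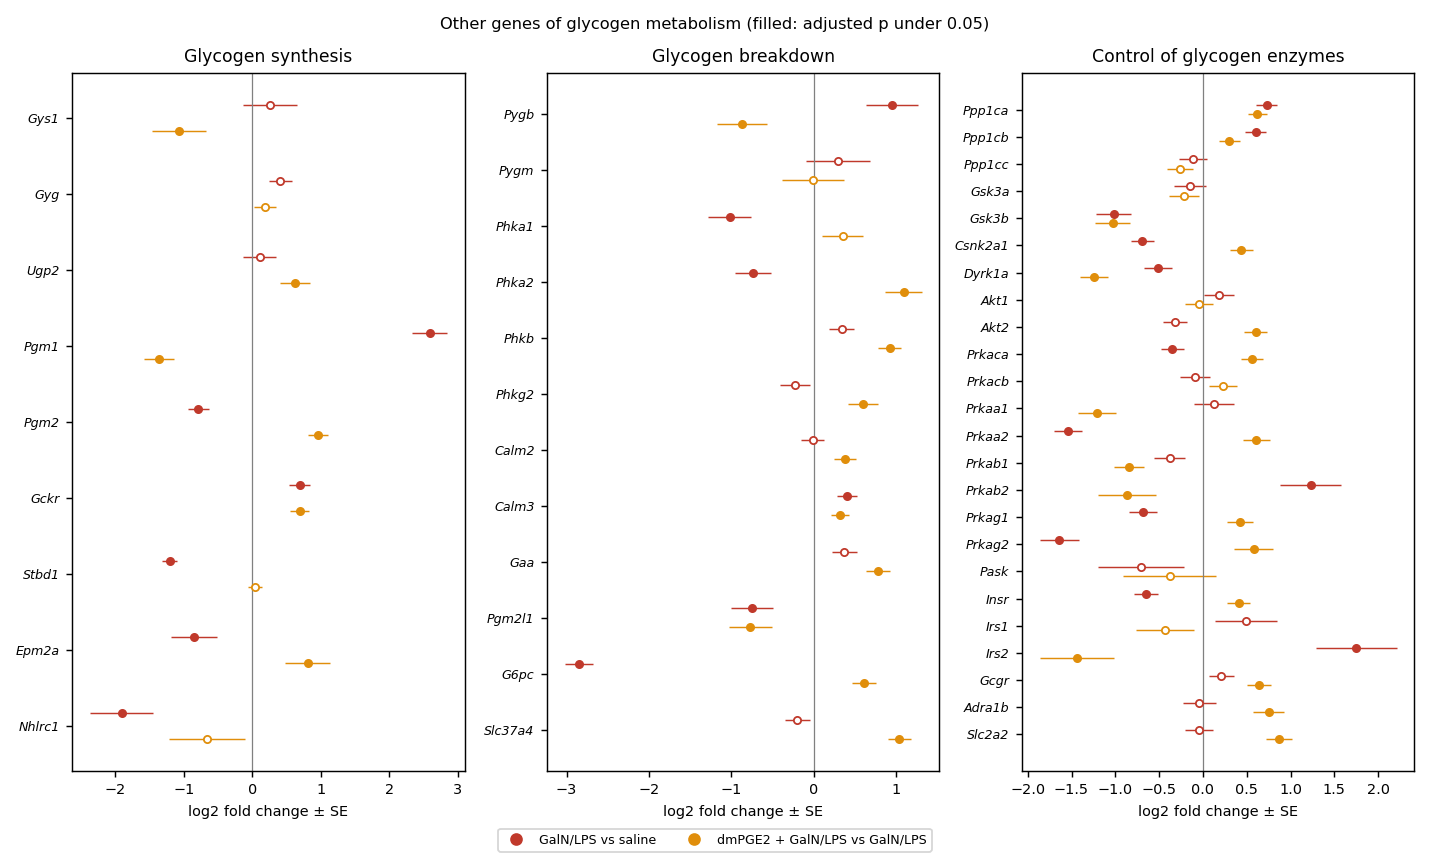
Log2 fold change ± SE of the other tested genes of glycogen synthesis, breakdown and control, for GalN/LPS against saline (red) and dmPGE2 + GalN/LPS against GalN/LPS (orange), which share the GalN/LPS libraries. Filled points are called, and Phkg1 and a few other genes are not drawn. Of the points drawn for GalN/LPS against saline, G6pc lies furthest to the left (-2.85).

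In dmPGE2 against saline livers edgeR called 0 genes of each of these 4 lists, and 0 of all 14280 genes. Over all genes, 1990 had an unadjusted p under 0.05. At an unadjusted p under 0.05 there were 2 of 10 for synthesis, 1 of 15 for breakdown, 7 of 25 for control and 4 of 13 for feeding, and DESeq2 called 1, 0, 0 and 3 of them, and limma on log2(FPKM + 1) called 0, 0, 0 and 1. Pck1 came nearest in the feeding list, with 340.8, 320.0 and 353.0 FPKM in dmPGE2 livers, against 565.0, 709.4 and 873.9 FPKM in saline livers, with no overlap (-1.08 ± 0.18, adjusted p = 0.0628). It was named after its values were seen.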

How the data were processed

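Whole-liver mRNA was measured in 13 libraries of 4 groups, made with the NEBNext Ultra kit from 1 µg of total RNA, per the labels' protocols. The authors deposited raw read counts per Ensembl gene and FPKM for the same libraries. Alignment was to GRCm38/mm10 with HISAT2, per the submitters' processing notes. The counter, the annotation release, the use of strand and how the FPKM denominator was set are not stated in the labels or headers. That denominator was 0.706 to 1.28 times the library total and close to the TMM factor. Table columns were tied to samples through their group and number. Those named ALF were taken as GalN/LPS, as the labels give these agents where the series text speaks of AILI mice.

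The 13 libraries entered 1 fit of counts with edgeR 4.0.16 (R 4.3.3, group as the only term, TMM, edgeR's filter by group). The quasi-likelihood test was two-sided, with Benjamini-Hochberg adjustment over 14280 genes at 0.05. The fit had 9 residual and 6.80 prior degrees of freedom and was tested on simulated data. Totals of 14829838 to 20777809 counts leave the lowest genes, under 10 reads a library, with wide counting error. Ratios used exact permutation tests (scipy 1.17.1), and likeness used log2 CPM (prior count 2) of genes with a mean of at least 5 CPM. Alternatives were library totals, DESeq2 1.42.0 size factors and its Wald test, no filter, only the groups compared, a replicate block, limma 3.58.1 on log2(FPKM + 1) or log2(FPKM + 0.1), and each library left out.

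The members and the 12 gene lists (137 of 138 distinct genes were in the table) were chosen with earlier results of these data known. Named were all members, Alb and Hnf4a, up to 4 genes of each pathway list with the smallest adjusted p in GalN/LPS against saline and up to 3 in pretreated against GalN/LPS, and the 5 genes most like Ppp1r3g and Gys2. Other named genes are said to be chosen after their values were seen. A few listed genes, some named by this rule, are counted in the lists but not reported here by name.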

Additional observations from a re-analysis of the deposited data

Results flagged for a closer look

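Among 15 sets of pretreated values examined, 3 had a library far from the other 3, by a criterion that chance meets in about 1 in 20 sets. Ppp1r3d was at 1.03 FPKM in pretreated 4, while the others lay between 0.347 and 0.454 FPKM. Gbe1 was at 27.9 FPKM in pretreated 3, while the others lay between 23.1 and 23.7 FPKM. The summed targeting subunits over Gys2 were at 0.226 in pretreated 1, while the others lay between 0.0734 and 0.0877.

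The dmPGE2 effect on Ppp1r3g ran in opposite directions in injured and uninjured livers. All pretreated livers were above all GalN/LPS livers, and all dmPGE2 livers were below all saline livers. The effects differed by 4.78 on the log2 scale. This difference was not tested, since it chose the gene.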

How the results depend on the processing

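Calls among the 7 genes other than Ppp1r3g were counted over all alternatives. They numbered 4 to 6 for GalN/LPS against saline, 4 to 6 for pretreated against GalN/LPS and 0 for dmPGE2 against saline. For pretreated livers they numbered 4 to 6 against dmPGE2 and 5 to 7 against saline. Where injured livers are set against uninjured ones, the counts include Ppp1r3d, called in 22 of 22 alternatives. For the reason given above, that call is not a test. Of the fold changes of the 7 genes under an alternative, 712 kept direction and side of the threshold. A further 19 lost and 17 gained a call, and 21 turned sign. All 21 were of genes without a call as reported, or of Gbe1 with library totals, and the cause was not tested. Gbe1 in GalN/LPS against saline was at -0.13 with totals and -0.09 with no filter, and ran from -0.06 to 0.13 with 1 library left out. Ppp1r3e in pretreated against GalN/LPS was at -0.31 with totals, and Ppp1r3c in dmPGE2 against saline ran from -0.37 to 0.19 with 1 library left out. In pretreated against dmPGE2, Gbe1 was at 0.00 with totals, and Gys2 at -0.73 with totals, -0.03 with DESeq2 size factors, -0.04 with its Wald test, -0.17 with no filter, -0.12 with only the groups compared, -0.08 with the replicate block and -0.05 with limma, and from -0.10 to 0.16 with 1 library left out.

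Library totals in place of TMM moved the genes called to 616 higher and 6804 lower (with TMM 3481 and 4299) for pretreated against GalN/LPS, 1523 and 7144 (5043 and 4481) against dmPGE2, 1683 and 6803 (4969 and 4313) against saline, and 182 and 5209 (2202 and 2797) for the interaction. In GalN/LPS against saline they gave 3067 higher and 4277 lower (3906 and 3650). The interaction had 1370 higher without GalN/LPS 3. For dmPGE2 against saline the count of 0 became 290 higher and 171 lower with no filter, and at most 14 each way with 1 library left out.

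Same-numbered libraries did not deviate together (r from -0.315 to 0.087 in 18 pairs, 0 over 0.1). The labels give no pairing by number, and such values in groups of 3 and 4 cannot exclude a weak one. With the replicate block Pygl lost its call in GalN/LPS against saline (0.41, adjusted p = 0.0673) and Ppp1r3c in pretreated against GalN/LPS (-1.28, adjusted p = 0.0884), while Ppp1r3d gained one there (-1.05, adjusted p = 0.0379). Depth limits Ppp1r3d in uninjured livers (1 to 5 reads a library) and Ppp1r3g in dmPGE2 livers (4 to 14). Groups of 3 and 4 limit every ratio test.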
